A study of Homo sapiens with 9 samples.

Results

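Gene expression after siRNA 1, a small interfering RNA against the long noncoding RNA LINC00673, was compared with that after a control siRNA in the breast cancer line labelled MDA-MB-453. The genes described are the 11471 annotated genes that averaged 1 FPKM or more in the 6 libraries compared, out of 19930 genes in the table. FPKM is a fragment count scaled by transcript length and by the depth of the library. A further 1504 predicted genes, which carry no standard name, passed the same limit and entered the fit, so that 12975 genes were tested. Of the predicted genes 35.5% were called by the rule given below.

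The series holds 9 RNA-seq libraries of MDA-MB-453 cells. In 3 libraries the cells carried siRNA 1, in 3 a second siRNA against the same RNA (siRNA 2), and in 3 the control siRNA, which the labels call scramble or control. The labels give Lipofectamine 2000 as the transfection reagent for all cells and a harvest at 48 h, and the controls therefore share the lipid and a transfected RNA with the siRNA 1 cells. Libraries are given below in the order without suffix, r1 and r2. The labels do not say whether these came from separate cultures, so that P-values measure the spread between these libraries, which may be technical. LINC00673 itself is not analysed here.

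An siRNA is a short RNA duplex. A strand taken up by the Argonaute protein, the guide, directs cleavage of RNA that it matches along its length, while the other strand, the passenger, is usually discarded. Bases 2 to 8 of a loaded strand, the seed, can also lower messenger RNAs with a matching site in the 3′ untranslated region, as a microRNA would. Cells meet a shortage of amino acids by translating the transcription factor ATF4, which raises genes for amino acid synthesis, uptake and charging of transfer RNA, and they meet misfolded protein in the cytosol through the heat-shock factor HSF1, which raises the chaperones.

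The strands of both duplexes are shown because they are the only designed difference between the 2 groups. They were taken from the study's list of RNA sequences, where siRNA 1 was matched to the libraries by its number alone. Capitals mark the seed, and each strand ends in a DNA overhang.
siRNA 1 guide: aGAAACCUcugauuccacctt
siRNA 1 passenger: gGUGGAAUcagagguuucutt
control guide: aCGUGACAcguucggagaatt
control passenger: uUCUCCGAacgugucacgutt

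The steps between neighbouring low FPKM values placed the 6 libraries at 24.08 to 27.46 M fragments. Pearson's r across genes on the log2(FPKM + 1) scale was 0.995 to 0.996 within a group and 0.965 to 0.973 between siRNA 1 and control libraries, and squared differences between replicates were 4.12 to 7.79 times the sampling noise, so no library was a copy of another. Of 9 epithelial and luminal markers, keratin 8 (KRT8), KRT18, KRT19, EPCAM and CDH1 were abundant. ERBB2 and FGFR4, also among them, had control means of 17.6 and 31.9 FPKM. FOXA1, a transcription factor that defines luminal cells, was at 0 to 0.01 FPKM in the 6 libraries compared. SPDEF, another luminal factor, was at 0.57 to 1.21 FPKM, and GATA3, which drives luminal fate, at 0.41 to 0.88 FPKM. Some defining markers of the labelled identity were thus absent or low here. TRPS1 and PRLR, from the longer luminal list, were at 0 to 0.03 FPKM, and 14 genes of that list lay under 1 FPKM in all 6 libraries. Others of it were expressed, with control means of 117 FPKM for TFF3, 88.1 for XBP1, 63.2 for AZGP1 and 23.4 for TMPRSS2. Of 20 markers of mesenchymal, blood and endothelial cells 14 lay under 1 FPKM in all 6 libraries and 1 was at 0 in all, yet their summed level was 71.2 to 74.7 FPKM with siRNA 1 and 51.8 to 53.9 FPKM in the control. Most of that sum was CD68, a lysosomal membrane protein that epithelial cells also make. LYZ, LUM, COL1A1 and HBA1 had means of 8.63, 6.82, 5.54 and 1.97 FPKM with siRNA 1 and 7.16, 5.75, 3.83 and 1.21 FPKM in the control. All 5 markers tested were higher with siRNA 1, and 3 of them were called. The part of these markers in the results below was not tested.

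A gene was called when it differed by at least 1.3-fold (0.38 on the log2 scale) with an unadjusted P of at most 0.05, the criteria of the study, in limma on log2(FPKM + 1) values. By this rule 10.8% of all genes tested were called higher with siRNA 1 and 15.9% lower, 26.7% in all. Among the 11471 annotated genes 1153 were called higher and 1780 lower, and 2931 of these 2933 were also at or below 0.05 after Benjamini-Hochberg adjustment. The siRNA 1 and control libraries did not overlap for 69.9% of all genes tested and 71.6% of the annotated genes, 4022 of them higher and 4192 lower. Of the 2933 called genes 2922 were without overlap. A gap between the groups alone therefore marks no gene as unusual here. Most differences were small. The middle 90% of the annotated genes lay between -0.72 and 0.52, the median SE was 0.053, and 70 genes were at least 2-fold higher and 207 at least 2-fold lower, against 0.809% and 2.10% of all genes tested. The limit of 1 FPKM passed between ESYT3, with a mean of 1 FPKM, and KRBA2, with 0.997 FPKM. The siRNA 1 mean alone reached 1 FPKM in 111 annotated genes, NLRC5, EGFR, DUSP10 and SGK1 among them. In 153 only the control mean did, as for LTB, SLC6A9, DEPTOR and MANF. These genes passed only through the group where they were higher, so their calls are no support for a change.

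Functions were then read from 45 gene lists, each summarised by its counts and by the median of its tested members. That median was -0.0029 over all genes tested, of which 10.8% were called higher and 15.9% lower. Counts of each list below are to be read beside these shares. Lists and members were chosen with earlier results of these data known, so their ranking is a description and no independent support. Genes for serine, one-carbon and asparagine synthesis, the class I antigen presentation genes, the ribosomal proteins, the aminoacyl-tRNA synthetases and the amino acid transporters had the lowest medians, from -0.57 to -0.28. Cytosolic heat-shock proteins, glycolytic enzymes, hypoxia-inducible genes and the zinc and metallothionein genes had the highest medians among lists of at least 10 tested genes, from 0.58 to 0.28. Medians of the mitotic and G1 lists lay close to 0.

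**Figure D1:**
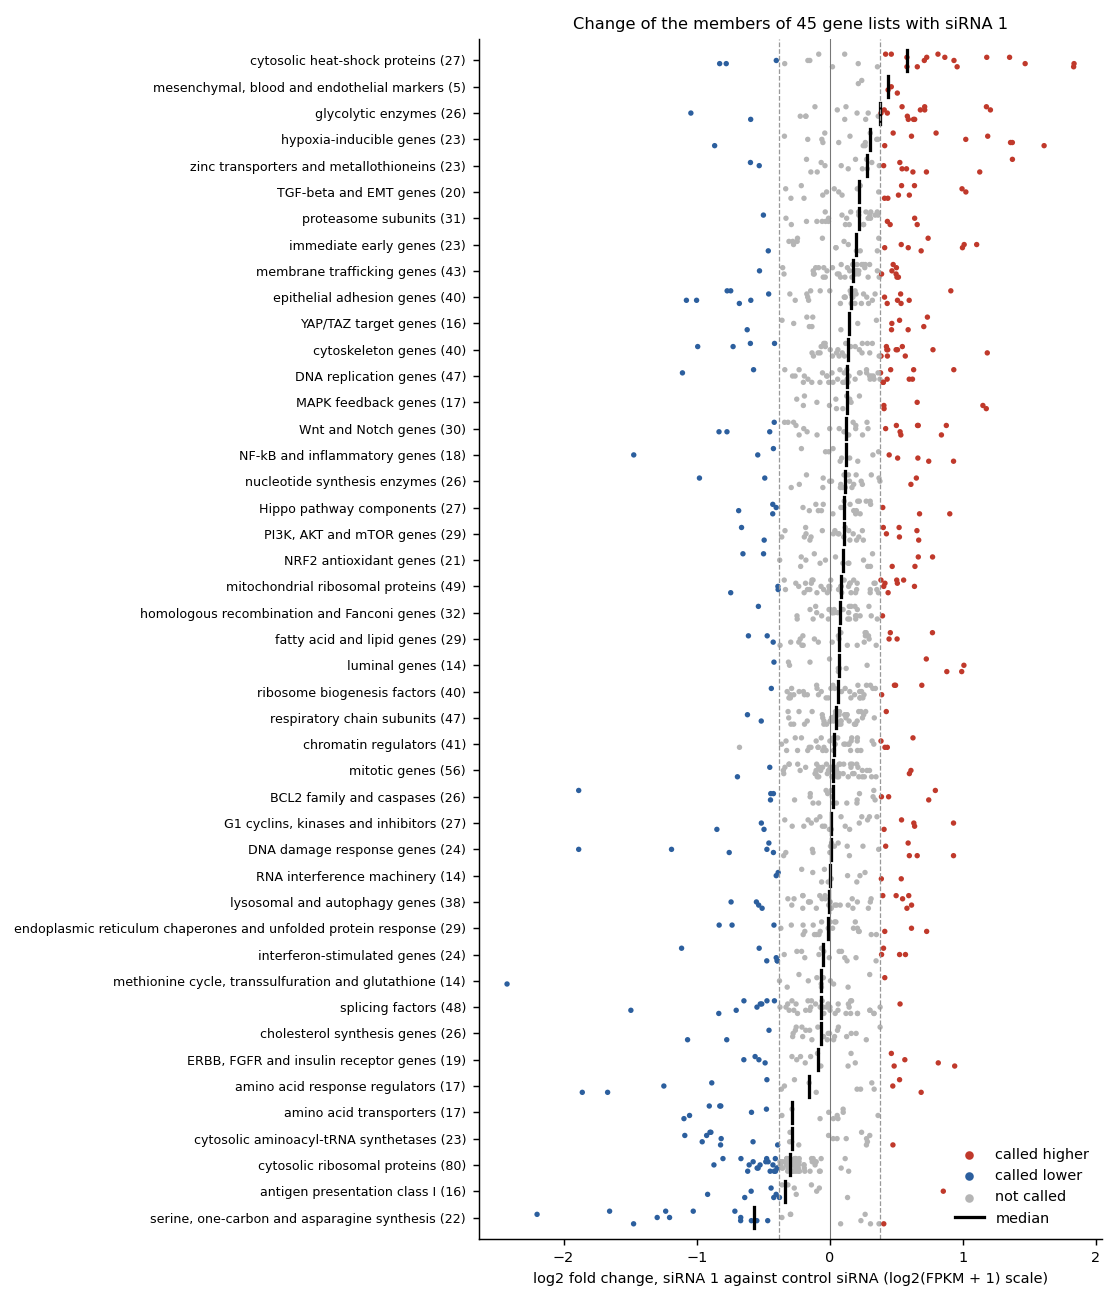
Each point is a gene of a list, placed by its log2 fold change of siRNA 1 over control on the log2(FPKM + 1) scale. Colours mark genes called higher, called lower or not called, and a bar marks each list's median, which runs from -0.57 for serine, one-carbon and asparagine synthesis to 0.58 for the cytosolic heat-shock proteins.

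The largest rises among single genes are given first. CSF2, the cytokine GM-CSF, stood at 16.6, 14.6 and 14.2 FPKM with siRNA 1 and at 2.34, 2.28 and 3.05 FPKM in the control (log2 fold change 2.19, SE 0.082, limma adjusted P = 4.5e-08). WFDC3, a secreted protein with a protease inhibitor domain, stood at 12.04, 12.6 and 11.2 FPKM against 2.15, 1.39 and 2.32 FPKM (log2 fold change 2.15, SE 0.11, limma adjusted P = 2e-07). Every siRNA 1 library lay far above every control library for both. TFRC, the transferrin receptor through which cells take up iron, was already well expressed, at 33.4, 36.2 and 34.9 FPKM in the control, and reached 118, 119 and 121 FPKM (log2 fold change 1.75, SE 0.038, limma adjusted P = 3e-09). PLAU, the urokinase plasminogen activator, rose from 14.99, 15.7 and 15.8 FPKM to 47.5, 47.2 and 47.2 FPKM (log2 fold change 1.55, SE 0.031, limma adjusted P = 3e-09). Spread within each group was small for these genes, a few FPKM at most. ADM, a vasodilator peptide raised by low oxygen, was at 19.1, 18.7 and 16.4 FPKM against 5.54, 4.69 and 5.5 FPKM in the control (log2 fold change 1.61).

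The remaining genes of the 12 largest rises were SLAMF9, a surface receptor of the immunoglobulin family (1.69 on the log2 scale), CEACAM6, an adhesion molecule (1.6), CLU, an extracellular chaperone (1.57), GAST, the precursor of gastrin (1.57), NR1D1, the circadian repressor REV-ERB alpha (1.5), and the heat-shock genes HSPA1A and HSPA1B described below. Gastrin was the least even of them, at 11.9, 11.4 and 9.53 FPKM with siRNA 1 and 3.5, 3.91 and 1.88 FPKM in the control. Lack of overlap was a condition for all 12.

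The largest falls went somewhat further. CBS, which joins homocysteine and serine to cystathionine, stood at 5.31, 4.64 and 4.73 FPKM with siRNA 1 and 31.6, 28.7 and 31.6 FPKM in the control (log2 fold change -2.43, SE 0.11, limma adjusted P = 1.1e-07), and a near-identical copy, CBSL, makes its level uncertain. DNPH1, a nucleotide hydrolase, fell from 52.02, 41.2 and 51.9 FPKM to 11.5, 12.04 and 8.73 FPKM (log2 fold change -2.08, SE 0.15, limma adjusted P = 1.9e-06). In both cases the lowest control library was more than 3 times the highest siRNA 1 library. INHBE, a secreted inhibin chain that ATF4 induces, was at 1.54, 1.56 and 1.44 FPKM against 9.62, 9.44 and 9.48 FPKM (log2 fold change -2.06, SE 0.049, limma adjusted P = 4.7e-09). NOTUM, a secreted enzyme that inactivates Wnt proteins, was the most abundant of the 12, at 228, 192 and 222 FPKM in the control and 57.6, 57.7 and 53.9 FPKM with siRNA 1 (log2 fold change -1.9, SE 0.082, limma adjusted P = 8.7e-08). A gap between the groups was a condition for the choice of these genes.

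Others among the 12 largest falls were FKBP2, a prolyl isomerase of the endoplasmic reticulum (-2.03 on the log2 scale), NOXA1, an activator of NADPH oxidase (-1.99), TNFRSF18, the receptor GITR (-1.95), and TAF15, an RNA-binding protein, whose siRNA 1 libraries were uneven at 11.4, 15.98 and 8.42 FPKM against 44.9, 39.5 and 46.9 FPKM (-1.83). PABPN1, a poly(A)-binding protein, was listed at 0 in every siRNA 1 library and at 8.66, 6.81 and 11.8 FPKM in the control. It overlaps a readthrough transcript with BCL2L2, so reads may have been assigned to either, and no fold change is given. ASNS, BBC3 and CHAC1 complete the set and are described with their pathways. After correction for GC content the falls were -1.6 for DNPH1, -1.67 for FKBP2, -1.39 for NOXA1 and -1.42 for TNFRSF18. Those of NOTUM, BBC3 and CHAC1 became -1.44, -1.29 and -1.55. CBS, ASNS, INHBE and TAF15 stayed near their first values, at -2.29, -2.26, -2.03 and -1.85.

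**Figure D2:**
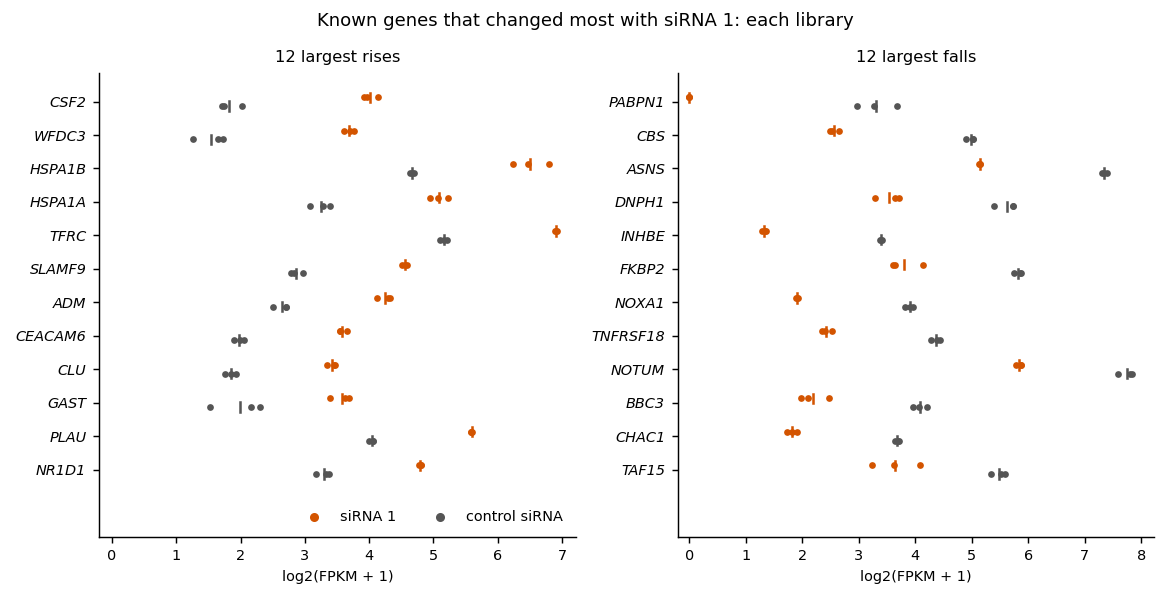
The 12 annotated genes with the largest rise and the 12 with the largest fall are plotted by library on a log2(FPKM + 1) axis, with 3 points and a bar at the mean for each group. The siRNA 1 and control points do not overlap for any of them, which was a condition of their choice. The siRNA 1 points of PABPN1 sit at 0 FPKM.

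Genes of amino acid synthesis had the lowest median of the 45 lists, which were chosen with earlier results of these data known. Of 22 tested genes for serine, one-carbon, asparagine and related synthesis, 13 were called lower and 1 higher, with a median log2 fold change of -0.57, against 15.9% and 10.8% of all genes tested. ASNS, which makes asparagine from aspartate, stood at 34.6, 34.1 and 34.5 FPKM with siRNA 1 and at 159.9, 168 and 157 FPKM in the control (log2 fold change -2.2, SE 0.031, limma adjusted P = 2.3e-10). ASS1, the argininosuccinate synthase of arginine synthesis, was at 39.9, 40.4 and 38.8 FPKM against 129.8, 124 and 128 FPKM (log2 fold change -1.65, SE 0.035, limma adjusted P = 3e-09). The gap between the groups was many times the spread within either. PSAT1, the aminotransferase of serine synthesis, fell from 104, 106 and 104 FPKM to 34.2, 38.5 and 38.9 FPKM (log2 fold change -1.47, SE 0.061, limma adjusted P = 7e-08). MTHFD2, the mitochondrial folate enzyme that handles carbon from serine, was at 67.9, 65.4 and 67.3 FPKM against 167, 168 and 162 FPKM (log2 fold change -1.3, SE 0.032, limma adjusted P = 5.3e-09).

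Genes of methionine and sulfur metabolism did not move as a group. Of 14 tested genes of the methionine cycle, transsulfuration and glutathione, 1 was called lower (CBS) and 1 higher, and the median was -0.06. GSR, glutathione reductase, was the higher one, at 45.2, 43.6 and 44.4 FPKM against 32.96, 32.9 and 33.5 FPKM (log2 fold change 0.41, and 0.36 after correction for GC content, which ended the call).

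Messages for amino acid uptake were lower in part. Of 17 tested transporters 7 were called lower and 0 higher, with a median of -0.28. SLC7A5, which with its partner SLC3A2 imports large neutral amino acids, was the most abundant of the named members, at 53.9, 56.8 and 54.4 FPKM with siRNA 1 and 102, 94.4 and 99.3 FPKM in the control (log2 fold change -0.83, SE 0.035, limma adjusted P = 7.4e-08). SLC43A1, a facilitator of large neutral amino acids, was at 13.2, 13.03 and 13.9 FPKM against 25.9, 26.2 and 25.8 FPKM (log2 fold change -0.91, SE 0.043, limma adjusted P = 1.4e-07). SLC1A4, which exchanges alanine, serine and cysteine, was at 2.44, 2.65 and 2.77 FPKM against 6.73, 6.79 and 6.68 FPKM (log2 fold change -1.1, SE 0.05, limma adjusted P = 1.1e-07). For all of these the highest siRNA 1 library was below the lowest control library. SLC6A9, a glycine transporter, was low throughout, at 0.6, 0.6 and 0.61 FPKM against 2.53, 2.52 and 1.97 FPKM (log2 fold change -1.05).

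Messages for the charging of transfer RNA were lower in part too. Of 23 tested genes of the cytosolic aminoacyl-tRNA synthetase list 9 were called lower and 1 higher, with a median of -0.29. That list includes AIMP1, AIMP2 and EEF1E1, partner proteins of the synthetases, which were not called. SARS1, which charges serine, had the largest fall, from 175, 177 and 176 FPKM to 82.9, 84.6 and 79.2 FPKM (log2 fold change -1.09, SE 0.033, limma adjusted P = 1.5e-08). QARS1, for glutamine, was at 39.7, 40.3 and 38.2 FPKM against 79.3, 74.6 and 78.6 FPKM (log2 fold change -0.96). The cysteine and methionine enzymes CARS1 and MARS1 changed by -0.93 and -0.9. VARS1, for valine, went the other way, at 36.9, 38.9 and 36.1 FPKM with siRNA 1 and 26.6, 25.6 and 27.5 FPKM in the control (log2 fold change 0.47, SE 0.048, limma adjusted P = 1.7e-05, and 0.79 after correction for GC content).

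The regulators of this response were mixed. ATF4 messenger RNA was at 283, 272 and 279 FPKM with siRNA 1 and 367, 354 and 353 FPKM in the control, a log2 difference of -0.36 that missed the fold limit although the libraries did not overlap. Of 17 tested regulators 5 were called lower and 3 higher, with a median of -0.16. TRIB3, a pseudokinase that ATF4 induces and that restrains it in turn, was at 29.6, 32.6 and 32.04 FPKM against 106, 98.5 and 102 FPKM (log2 fold change -1.67, SE 0.042, limma adjusted P = 5.9e-09). CHAC1, which degrades glutathione, was at 2.52, 2.34 and 2.73 FPKM against 12.04, 11.5 and 11.9 FPKM (log2 fold change -1.86, SE 0.06, limma adjusted P = 2.1e-08). The transcription factors ATF5 and CEBPB changed by -1.25 and -0.89, the latter by -0.44 after correction for GC content. In contrast ATF3, a stress-induced factor, rose from 6.74, 7.17 and 7.11 FPKM to 12.1, 12 and 11.6 FPKM (log2 fold change 0.69, SE 0.041, limma adjusted P = 6.8e-07). PPP1R15A, which restores translation by directing dephosphorylation of eIF2 alpha, changed by 0.47, and EIF2AK2, the RNA-activated kinase PKR that phosphorylates it, by 0.52. DDIT3, the factor CHOP, was at 116, 110 and 109 FPKM against 96.8, 93.1 and 94.7 FPKM, a difference of 0.23 that was not called. So the members of the response with the largest falls lay beside ATF3 and PPP1R15A, which rose.

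**Figure D3:**
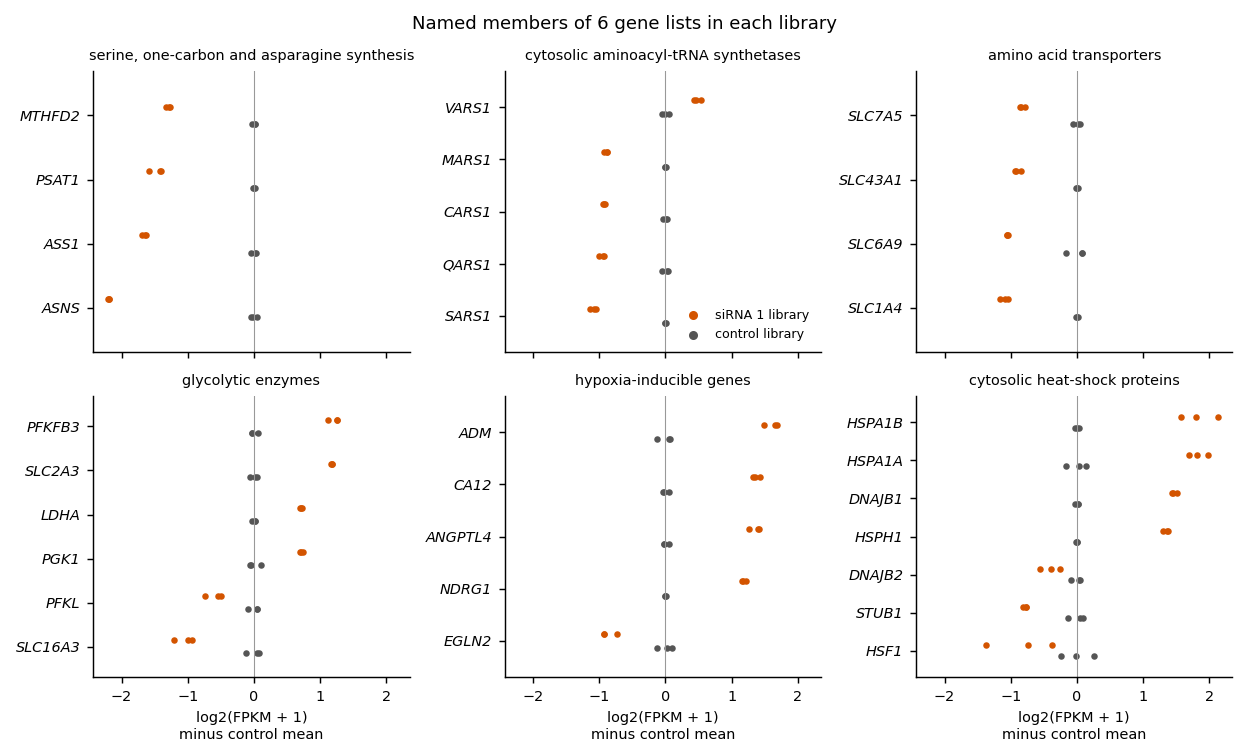
Named genes of amino acid synthesis, uptake and charging, of glycolysis and hypoxia, and of the heat-shock proteins are plotted by library as the log2(FPKM + 1) difference from the control mean, with 3 siRNA 1 and 3 control points per gene. ASNS sits near -2.20 and HSPA1B near 1.83, and the HSF1 points of siRNA 1 are the most scattered of the genes shown.

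Promoters of these genes were searched, on either strand, for TGATGNAA, the core of the element that ATF4 and its partners bind, in 250 bases before to 50 after the RefSeq start. It occurred in 1.49% of the promoters of tested annotated genes and 3.62% of all promoters in the reference. It was held by 3 of the 13 genes of the synthesis list with a promoter sequence, all 3 called lower (MTHFD1L, ASNS and GOT1). Of all 22 tested genes of that list 13 were called lower, with or without it. Of the synthetase list 6 of 19 held it, 5 of them called. So did 3 of 16 transporters, 2 of them called, and 3 of 16 regulators, 2 of them called (CHAC1 lower and ATF3 higher). Genes called lower held it in 2.31% and genes called higher in 1.3%. Of all 141 tested genes with the motif 33 were called lower and 12 higher. The ASNS, AARS1 and CHAC1 promoters are shown as genes that fell, and that of ATF3 as the regulator that rose with the same letters. Each window is 40 bases of GRCh38.p14, read on the gene's strand, with the motif in capitals.
ASNS, chr7:97872453-97872492, minus strand: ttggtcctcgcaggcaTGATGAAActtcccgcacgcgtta
AARS1, chr16:70289670-70289709, minus strand: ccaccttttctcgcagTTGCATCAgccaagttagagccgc
CHAC1, chr15:40953246-40953285, plus strand: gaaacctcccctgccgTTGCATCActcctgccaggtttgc
ATF3, chr1:212565200-212565239, plus strand: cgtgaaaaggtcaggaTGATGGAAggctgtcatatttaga
The motif began 68 bases before the start site in ASNS, 187 in AARS1, 209 in CHAC1 and 191 in ATF3, and a match of letters is a description, not a bound site. AARS1, which charges alanine, changed by -0.82.

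Heat-shock proteins, the cytosolic chaperones among them, were often higher. Of 27 tested genes of the heat-shock list 16 were called higher and 3 lower, with a median of 0.58. That list also holds the transcription factors HSF1 and HSF2 and the ubiquitin ligase STUB1. HSPA1B, an inducible HSP70, was at 111, 87.9 and 74.4 FPKM with siRNA 1 and 24.4, 23.9 and 25.1 FPKM in the control (log2 fold change 1.83, SE 0.12, limma adjusted P = 8.7e-07). HSPA1A, a near-identical copy whose reads cannot be separated from it with certainty, was at 36.4, 29.9 and 32.5 FPKM against 9.45, 7.48 and 8.69 FPKM (log2 fold change 1.83, SE 0.081, limma adjusted P = 9.9e-08). DNAJB1, the HSP40 that hands clients to HSP70, was at 192, 181 and 184 FPKM against 67.4, 65.3 and 67.3 FPKM (log2 fold change 1.47, SE 0.042, limma adjusted P = 1.1e-08). The lowest siRNA 1 library was well above the highest control library for all of them. HSPH1, an HSP110 that exchanges the nucleotide of HSP70, rose from 20.1, 19.99 and 19.9 FPKM to 53.5, 50.9 and 53.1 FPKM (log2 fold change 1.35, SE 0.037, limma adjusted P = 8.9e-09).

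HSF1, the factor that induces these genes, was called lower at the level of its messenger RNA, at 7.69, 5.75 and 3.37 FPKM with siRNA 1 and 12.5, 10.1 and 8.52 FPKM in the control (log2 fold change -0.83, SE 0.25, limma adjusted P = 0.015). The siRNA 1 libraries differed among themselves more than 2-fold, and the call ended after correction for GC content (-0.43). STUB1, a ubiquitin ligase for chaperone clients, also fell, from 28.5, 24.4 and 27.7 FPKM to 14.9, 15.3 and 15.4 FPKM (log2 fold change -0.78, and -0.37 after that correction, no longer called). DNAJB2 was the third, at -0.4, and lost its call after the correction (-0.23), without siRNA 1 library r2 (-0.32) and without control library r2 (-0.38).

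The motif GAANNTTC, the pair of inverted units that HSF1 binds, was searched in the same windows. It reads the same on both strands and occurred in 4.43% of tested annotated promoters and 6.77% of all promoters. It was held by 8 of 24 genes of the heat-shock list with a promoter sequence, 5 of them called. Of all genes called higher 6.80% held it, and of genes called lower 3.64%. Among all 418 tested genes with this motif 63 were called higher and 52 lower. The HSP70 pair is shown because the copies share reads, DNAJA1 and CHORDC1 as 2 further genes that rose, and HSPB1 as a gene with the motif that was not called.
HSPA1A, chr6:31815421-31815460, plus strand: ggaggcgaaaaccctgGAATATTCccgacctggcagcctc
HSPA1B, chr6:31827617-31827656, plus strand: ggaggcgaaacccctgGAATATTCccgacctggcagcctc
DNAJA1, chr9:33025059-33025098, plus strand: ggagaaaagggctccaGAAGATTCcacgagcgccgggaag
CHORDC1, chr11:90223086-90223125, minus strand: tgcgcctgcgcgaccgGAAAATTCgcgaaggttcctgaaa
HSPB1, chr7:76302475-76302514, plus strand: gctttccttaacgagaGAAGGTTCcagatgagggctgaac
Log2 fold changes were 0.81 for DNAJA1, 0.86 for CHORDC1 and 0.21 for HSPB1, genes chosen here for their sequence after their values were seen. CHORDC1 held the motif 3 times, at 205, 60 and 50 bases before its start site, and the last of these lies in the window shown, in lower case after the capitals.

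Chaperones of the endoplasmic reticulum did not move as a group. Of 29 tested genes of that compartment and its unfolded protein response, 3 were called higher, 3 lower, and the median was -0.01. HSPA5, the chaperone BiP, was at 283, 267 and 269 FPKM against 163, 165 and 165 FPKM (log2 fold change 0.73, SE 0.028, limma adjusted P = 4.9e-08), without overlap. ERO1A, an oxidase that drives disulfide formation, changed by 0.61 and PDIA4, a disulfide isomerase, by 0.41. XBP1, the factor spliced during that response, was lower, at 67.5, 65.8 and 63.6 FPKM against 87.4, 87.4 and 89.5 FPKM (log2 fold change -0.42, SE 0.031, limma adjusted P = 2.4e-06), a call that ended after correction for transcript length (-0.35). SDF2L1 and MANF, which assist folding there, changed by -0.83 (-0.41 after correction for GC content) and -0.73.

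Of 31 tested proteasome subunits 4 were called higher (12.9%, against 10.8% of all genes tested) and 1 lower, and the median of 0.22 was 0.13 after correction for GC content. PSMD2, a base subunit of the regulatory cap, was at 81.1, 80.2 and 81.8 FPKM against 52.05, 50.5 and 50.7 FPKM (log2 fold change 0.66, SE 0.029, limma adjusted P = 9.6e-08). PSMD12, PSMD1 and PSMD11, all of the same cap, changed by 0.64, 0.45 and 0.43. PSMC5, an ATPase of the cap, was lower, at 70.9, 73.2 and 75.7 FPKM against 105, 107 and 99.4 FPKM (log2 fold change -0.5, SE 0.041, limma adjusted P = 4.1e-06).

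Ribosomal protein messages were lower almost throughout. Of 80 tested genes of the cytosolic ribosome 19 were called lower and 0 higher, the median was -0.30, and in 76 of 80 every siRNA 1 library lay below every control library, where 69.9% of all genes tested were apart in either direction. RPL3, a core protein of the large subunit, was at 1362, 1334 and 1294 FPKM with siRNA 1 and 2357, 2310.4 and 2294 FPKM in the control (log2 fold change -0.8, SE 0.027, limma adjusted P = 2.2e-08). RPS9, of the small subunit, was at 786, 773 and 706 FPKM against 1463, 1298 and 1384 FPKM (log2 fold change -0.87, SE 0.06, limma adjusted P = 1.5e-06). RPS2 and RPL12 changed by -0.67 and -0.62. Many of these genes have processed pseudogenes that can share reads, so single members are uncertain.

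Genes of ribosome assembly did not follow, with 4 of 40 tested biogenesis factors called higher, 1 lower and a median of 0.06. RRP12, which helps export of the subunits, was at 17.7, 17.3 and 16.98 FPKM against 10.3, 10.1 and 10.7 FPKM (log2 fold change 0.69, SE 0.036, limma adjusted P = 3e-07). NOP2, a methyltransferase of ribosomal RNA, changed by 0.49. PES1, needed for the large subunit, changed by -0.44 and was no longer called after correction for GC content (-0.29). Mitochondrial ribosomal proteins had a median of 0.09, with 8 of 49 called higher (16.3%, against 10.8% of all genes tested) and 3 lower. MRPL17 was at 29.4, 31.9 and 31.9 FPKM against 19.6, 19.96 and 19.4 FPKM (log2 fold change 0.64), while MRPS26 was at 24.9, 25.1 and 22.4 FPKM against 43.5, 39.2 and 40.5 FPKM (-0.74, and -0.4 after correction for GC content).

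Of 48 tested splicing factors 9 were called lower (18.8%, against 15.9% of all genes tested) and 1 higher, with a median of -0.07 that was -0.13 after correction for GC content. HNRNPA1, an abundant RNA-binding protein that represses splice sites, was at 1066, 1037 and 1001 FPKM with siRNA 1 and 1827, 1871 and 1836 FPKM in the control (log2 fold change -0.83, SE 0.027, limma adjusted P = 2.2e-08). CLK2, a kinase of the serine and arginine rich factors, was at 1.13, 0.96 and 1.3 FPKM against 4.26, 4.18 and 6.89 FPKM (log2 fold change -1.49, SE 0.21, limma adjusted P = 0.00015). LUC7L and HNRNPA0 changed by -0.7 and -0.65. PRPF8, the scaffold at the catalytic centre of the spliceosome, was the member called higher, at 147, 150.3 and 151 FPKM against 98.4, 106 and 106 FPKM (log2 fold change 0.53, SE 0.035, limma adjusted P = 1.3e-06). None of these groups of libraries overlapped.

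The machinery that uses the siRNA was near balance, with 2 of 14 tested genes called higher and 2 lower. AGO2, the Argonaute that cleaves targets, was at 18.7, 19.99 and 20.2 FPKM against 12.3, 13.3 and 14.03 FPKM (log2 fold change 0.54, SE 0.055, limma adjusted P = 1.8e-05). AGO4, which does not cleave, changed by -0.39, a call lost without siRNA 1 library r1 (-0.37) or control library r2 (-0.37). Among chromatin regulators 4 of 41 tested were called higher and 0 lower, with a median of 0.03. KMT2D, a histone H3 lysine methyltransferase of enhancers, was at 11.3, 11.4 and 11.1 FPKM against 6.68, 6.84 and 7.37 FPKM (log2 fold change 0.62, SE 0.043, limma adjusted P = 1.5e-06). EZH2, the Polycomb methyltransferase, was at 37.9, 36.1 and 38.4 FPKM against 43.6, 45.9 and 43.98 FPKM, a difference of -0.24 that was not called.

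Glycolytic genes were often higher. Of 26 tested enzymes and transporters 13 were called higher and 2 lower, with a median of 0.37. SLC2A3, the glucose transporter GLUT3, was at 225, 226 and 227 FPKM with siRNA 1 and 95.3, 103 and 100.2 FPKM in the control (log2 fold change 1.18, SE 0.039, limma adjusted P = 2.2e-08). PFKFB3, which makes the fructose bisphosphate that activates phosphofructokinase, was at 44.1, 44.5 and 40.1 FPKM against 18.9, 17.6 and 17.6 FPKM (log2 fold change 1.21, SE 0.046, limma adjusted P = 5.2e-08). LDHA, which turns pyruvate into lactate, was at 1752, 1802 and 1777 FPKM against 1091, 1095 and 1066 FPKM (log2 fold change 0.71, SE 0.027, limma adjusted P = 5.1e-08). All 3 were separated from the control by many times the spread of the libraries. PGK1, which makes ATP in glycolysis, changed by 0.71, while GAPDH, often used as a reference gene, was at 7855, 8114 and 7872 FPKM against 7538, 7153 and 7232 FPKM, a difference of 0.12 that was not called.

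The 2 members called lower were SLC16A3, the lactate exporter MCT4, at 77.2, 73.7 and 63.8 FPKM against 157, 136 and 153 FPKM (log2 fold change -1.04, SE 0.1, limma adjusted P = 1.5e-05), and PFKL, the liver phosphofructokinase, at -0.59, whose call ended after correction for GC content (-0.23). Genes of mitochondrial respiration were close to unchanged in their counts. Of 47 tested respiratory chain subunits 1 was called higher and 2 lower, with a median of 0.04. ATP5MC1, of the proton ring of ATP synthase, changed by 0.42, and ATP5F1D and NDUFV1 by -0.62 and -0.52. None of these 3 calls held after correction for GC content (0.37, -0.26 and -0.33).

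Hypoxia-inducible genes were also called higher more often than lower, with 9 of 23 tested called higher, 1 lower and a median of 0.30. NDRG1, a stress-responsive gene, was at 235, 227 and 224 FPKM with siRNA 1 and 101, 99.04 and 99.8 FPKM in the control (log2 fold change 1.19, SE 0.026, limma adjusted P = 3e-09). CA12, a carbonic anhydrase of the cell surface, was at 4.62, 4.73 and 5.01 FPKM against 1.19, 1.31 and 1.21 FPKM (log2 fold change 1.37, SE 0.048, limma adjusted P = 2.9e-08). ANGPTL4, a secreted inhibitor of lipoprotein lipase, was at 9.95, 10.04 and 8.94 FPKM against 3.08, 3.07 and 3.3 FPKM (log2 fold change 1.36, SE 0.062, limma adjusted P = 1.2e-07). The groups did not overlap. HIF1A, the oxygen-regulated factor of this response, was at 39.7, 40.4 and 41.4 FPKM against 27.98, 30.7 and 27.9 FPKM (log2 fold change 0.48, SE 0.041, limma adjusted P = 5.5e-06). EGLN2, a prolyl hydroxylase that marks that factor for destruction, was lower, at 6.78, 7.91 and 6.82 FPKM against 14.98, 12.6 and 14.1 FPKM (log2 fold change -0.87, SE 0.11, limma adjusted P = 6.8e-05).

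Messages of the named metallothioneins, small proteins that bind zinc and copper, were higher. Of 23 tested zinc transporter and metallothionein genes 8 were called higher and 2 lower, with a median of 0.28. MT1X was at 135, 135 and 137 FPKM against 52.97, 47.7 and 55.1 FPKM (log2 fold change 1.37, SE 0.047, limma adjusted P = 2.8e-08). MT2A, the most abundant, was at 703, 719 and 697 FPKM against 493, 426 and 457 FPKM (log2 fold change 0.62, SE 0.047, limma adjusted P = 2.6e-06). MT1A changed by 1.13, and the closely similar MT1 genes may share reads. Importers of zinc were divided, since SLC39A11 changed by 0.73, SLC39A4 by -0.6 and SLC39A3 by -0.53.

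Antioxidant genes of the NRF2 programme had 4 of 21 tested called higher and 2 lower, with a median of 0.10. HMOX1, which breaks down haem, was at 4.13, 4.52 and 3.95 FPKM against 2.04, 2.13 and 1.96 FPKM (log2 fold change 0.77, SE 0.054, limma adjusted P = 1.7e-06). PRDX1, a peroxidase, was at 400.4, 419.9 and 421 FPKM against 263, 275 and 258 FPKM (log2 fold change 0.64, SE 0.034, limma adjusted P = 3.3e-07). PGD, of the pentose phosphate pathway, was lower, at 43.8, 45.7 and 45.6 FPKM against 71.4, 70.7 and 72.05 FPKM (log2 fold change -0.65, SE 0.035, limma adjusted P = 3.1e-07). Libraries of the groups were apart in each case. KEAP1, the adaptor that holds NRF2 in check, changed by -0.5 and lost its call after correction for GC content (-0.27), and NFE2L2, which encodes NRF2, differed by 0.1 and was not called.

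DNA replication genes leaned upward, with a median of 0.13. Of 47 tested 9 were called higher (19.1%, against 10.8% of all genes tested) and 2 lower. MCM4, a subunit of the replicative helicase, was at 44.7, 46.9 and 48.2 FPKM with siRNA 1 and 23.8, 23.5 and 24.6 FPKM in the control (log2 fold change 0.93, SE 0.04, limma adjusted P = 8.3e-08). PCNA, the sliding clamp, was at 137, 148 and 144 FPKM against 93.6, 96.1 and 93.2 FPKM (log2 fold change 0.6, SE 0.034, limma adjusted P = 4.8e-07). FEN1, the flap nuclease, and CDC6, a loader of the helicase, changed by 0.63 and 0.62. CDT1, the other loader, went down, at 16.4, 16.98 and 15.3 FPKM against 38.1, 33.8 and 36.5 FPKM (log2 fold change -1.11, SE 0.061, limma adjusted P = 3.9e-07, and -0.71 after correction for GC content). POLD1, the catalytic subunit of polymerase delta, changed by -0.57 and was not called after correction for GC content (-0.17).

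Nucleotide synthesis had 2 of 26 tested called higher and 2 lower, with a median of 0.11 (0.073 after correction for GC content). IMPDH2, the rate-limiting enzyme of guanine nucleotide synthesis, was at 141, 139.6 and 139.9 FPKM against 279, 279 and 273 FPKM (log2 fold change -0.98, SE 0.023, limma adjusted P = 4.7e-09). RRM2, of ribonucleotide reductase, and PRPS1, which makes the activated ribose, changed by 0.61 and 0.65. TK1, thymidine kinase, changed by -0.49, and after correction for GC content it was no longer called (-0.17).

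Mitotic genes barely moved, with 2 of 56 tested called higher, 2 lower and a median of 0.03. FOXM1, which drives their transcription, was at 14.6, 15.7 and 15.1 FPKM with siRNA 1 and 24.7, 25.2 and 25.3 FPKM in the control (log2 fold change -0.69, SE 0.048, limma adjusted P = 1.5e-06). CDC25A and CDC25C, phosphatases that activate cyclin-dependent kinases, changed by 0.6 and -0.45. CKS2, a kinase subunit, changed by 0.61. MKI67, the proliferation marker, was at 42.2, 42.2 and 43.7 FPKM against 33.9, 35.9 and 35.4 FPKM, a difference of 0.28 that was not called. MYC was at 78.7, 78.9 and 79.1 FPKM against 81.6, 81.03 and 83.5 FPKM (-0.06, not called). Repair genes of homologous recombination and the Fanconi pathway had 1 of 32 tested called higher and 1 lower. FANCG changed by -0.54, and ATR, the replication stress kinase, by 0.4, a call that ended without the unsuffixed control library (0.34) and after correction for GC content (0.32).

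Cyclins and inhibitors of G1 had 5 of 27 tested called higher and 3 lower, with a median of 0.01. CDKN1A, the inhibitor p21, was at 30.1, 31.9 and 28.99 FPKM with siRNA 1 and 15.7, 15.1 and 15.5 FPKM in the control (log2 fold change 0.93, SE 0.043, limma adjusted P = 1.2e-07). CCND3 and CCNE1, cyclins that promote entry into S phase, changed by 0.64 and 0.63, and CCND1 by 0.41. CDKN2A, which encodes p16 and ARF, was lower, at 80.6, 73.9 and 64.4 FPKM against 143, 118 and 136 FPKM (log2 fold change -0.85, SE 0.11, limma adjusted P = 9.4e-05). CDK4, the kinase that p16 inhibits, was at 45.04, 48.2 and 43.8 FPKM against 66.8, 64.1 and 63.2 FPKM (log2 fold change -0.49, SE 0.041, limma adjusted P = 4.7e-06). Thus genes on either side of the G1 control were found in each direction.

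Genes of arrest and death after DNA damage were divided too, with 5 of 24 tested called higher, 6 lower and a median of 0.01. BBC3, the death-promoting protein PUMA, was at 4.58, 2.96 and 3.32 FPKM against 17.6, 14.6 and 15.7 FPKM (log2 fold change -1.89, SE 0.15, limma adjusted P = 2.9e-06). FDXR, ferredoxin reductase, was at 9.26, 9.36 and 7.51 FPKM against 21.9, 20.1 and 21.2 FPKM (log2 fold change -1.19, SE 0.088, limma adjusted P = 2.3e-06). AEN, a nuclease of apoptosis, and GADD45B changed by 0.66 and 0.59.

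Among BCL2 family members and caspases 4 of 26 tested were called higher (15.4%, against 10.8% of all genes tested) and 4 lower (15.4%, against 15.9%). PMAIP1, the death-promoting protein NOXA, was at 20.5, 19.4 and 19.6 FPKM against 11.1, 10.8 and 11.2 FPKM (log2 fold change 0.79, SE 0.061, limma adjusted P = 2.9e-06), opposite in direction to BBC3. BIRC3, an inhibitor of apoptosis, was at 5.52, 5.51 and 5.63 FPKM against 2.88, 3.04 and 2.83 FPKM (log2 fold change 0.74, SE 0.046, limma adjusted P = 8e-07), and BAK1, which permeabilises mitochondria, changed by 0.44. BAX and BAD, at -0.42 and -0.45, were not called after correction for GC content, at -0.25 and 0.01.

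Hippo signalling is a kinase cascade that keeps the coactivators YAP1 and WWTR1 (TAZ) out of the nucleus. Of 27 tested components 3 were called higher (11.1%, against 10.8% of all genes tested) and 4 lower (14.8%, against 15.9%). Their median was 0.11. After correction for GC content 3 were higher and 1 lower, with a median of 0.031. AMOT, which binds these coactivators at junctions, was at 5.3, 4.93 and 5.12 FPKM against 2.69, 3.08 and 2.74 FPKM (log2 fold change 0.67, SE 0.054, limma adjusted P = 3.8e-06). TEAD3, a DNA-binding partner of theirs, was at 4.64, 4.87 and 5.03 FPKM against 8.31, 8.42 and 8.46 FPKM (log2 fold change -0.69, SE 0.051, limma adjusted P = 2.3e-06). WWTR1 changed by 0.9, and YAP1 by -0.09, which was not called. TEAD2 and the kinases MARK4 and TAOK2, at -0.43, -0.43 and -0.4, were no longer called after correction for GC content (-0.27, -0.25 and -0.09), and the TAOK2 call also ended without siRNA 1 library r2 (-0.34).

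Of 16 tested target genes of these coactivators 6 were called higher and 1 lower, with a median of 0.15. NUAK2, a kinase, was at 8.95, 9.07 and 8.55 FPKM against 4.9, 4.58 and 5.33 FPKM (log2 fold change 0.73, SE 0.054, limma adjusted P = 2.3e-06). DOCK5, an activator of Rac, and ASAP1, which acts on ARF GTPases, changed by 0.71 and 0.52. AJUBA, a scaffold that restrains the Hippo kinases, was lower, at 8.14, 8.15 and 8.24 FPKM against 13.4, 13.5 and 12.5 FPKM (log2 fold change -0.62, SE 0.044, limma adjusted P = 1.9e-06).

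Immediate early genes, many of them transcription factors, were called higher more often than lower. Of 23 tested genes 8 were called higher and 1 lower, with a median of 0.20, and after correction for GC content 11 were called higher with a median of 0.38. JUN, a subunit of AP-1, was at 129.8, 121 and 109 FPKM with siRNA 1 and 60.4, 56.3 and 61.7 FPKM in the control (log2 fold change 1.0, SE 0.072, limma adjusted P = 2e-06). ZFP36, which promotes decay of AU-rich messages, was at 88.9, 88.4 and 90.8 FPKM against 41.6, 39.7 and 41.9 FPKM (log2 fold change 1.1, SE 0.035, limma adjusted P = 1.9e-08). KLF6 and KLF10, zinc finger factors, changed by 1.01 and 0.74, and IER5 by -0.46. Promoters with TGACTCA on either strand, the AP-1 site, made up 4.97% of genes called higher, 2.66% of genes called lower and 2.96% of those tested.

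Feedback genes of the MAPK pathway had 5 of 17 tested called higher and 0 lower, with a median of 0.13 (0.21 after correction for GC content). DUSP5, a nuclear phosphatase of ERK, was at 63.8, 64.3 and 63.4 FPKM against 28.2, 28.2 and 26.8 FPKM (log2 fold change 1.18, SE 0.032, limma adjusted P = 8.9e-09). DUSP1, which acts on JNK and p38, was at 19.7, 19.2 and 18.01 FPKM against 8.46, 7.22 and 8.34 FPKM (log2 fold change 1.15, SE 0.066, limma adjusted P = 5.1e-07). DUSP10 changed by 0.66.

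Genes of TGF-beta signalling and of the epithelial to mesenchymal transition had 8 of 20 tested called higher and 0 lower, with a median of 0.22. SNAI1 and SNAI2 encode repressors of the epithelial state. SNAI1 was at 25.02, 27.6 and 26.7 FPKM against 13.3, 11.7 and 12.6 FPKM (log2 fold change 1.02, SE 0.057, limma adjusted P = 4.1e-07). SNAI2 was at 8.64, 9.4 and 9.01 FPKM against 3.83, 4.29 and 3.98 FPKM (log2 fold change 0.99, SE 0.052, limma adjusted P = 3e-07). ID2, an inhibitor of helix-loop-helix factors, changed by 0.64. CDH1, the epithelial cadherin that SNAI1 represses, was nonetheless higher, at 114, 117 and 115 FPKM against 84.7, 88.2 and 86.9 FPKM (log2 fold change 0.41, SE 0.03, limma adjusted P = 2.1e-06), though its call ended after correction for GC content (0.37). VIM, the mesenchymal filament protein, was at 431, 441 and 436 FPKM against 391, 366 and 376 FPKM, a difference of 0.21 that was not called.

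In the Wnt and Notch list 8 of 30 tested genes were called higher and 4 lower, with a median of 0.12. JAG1, a Notch ligand, was at 98.98, 100.2 and 97.2 FPKM against 52.1, 52.4 and 55.8 FPKM (log2 fold change 0.88, SE 0.032, limma adjusted P = 4e-08). HES1, a repressor induced by Notch, was at 71.5, 72.5 and 71.7 FPKM against 40.6, 39.2 and 39.5 FPKM (log2 fold change 0.84, SE 0.035, limma adjusted P = 6.9e-08). RNF43, which removes Wnt receptors, and WNT7B, a ligand, changed by 0.66 and 0.66. AXIN1, the scaffold that destroys beta-catenin, was lower, at 12.04, 11.8 and 10.1 FPKM against 20.5, 19.2 and 20.2 FPKM (log2 fold change -0.77, SE 0.079, limma adjusted P = 1.8e-05, and -0.42 after correction for GC content). HES4 and JAG2, at -0.83 and -0.42, lost their calls after correction for GC content (-0.06 and -0.05).

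Growth factor receptors were mixed. Of 19 tested genes of the ERBB, FGFR and insulin receptor systems 5 were called higher and 4 lower, with a median of -0.09. AREG, an EGFR ligand, was at 42.9, 43.05 and 41.4 FPKM against 20.9, 21.4 and 22.8 FPKM (log2 fold change 0.94, SE 0.04, limma adjusted P = 8.4e-08). EGFR itself was low but higher with siRNA 1, at 2.47, 2.06 and 2.02 FPKM against 0.73, 1.04 and 0.67 FPKM (log2 fold change 0.81). EGFR reached a mean of 1 FPKM only with siRNA 1. ERBB3, a relative with weak kinase activity, was lower, at 31.4, 32.6 and 32.9 FPKM against 46.4, 49.8 and 48.2 FPKM (log2 fold change -0.56, SE 0.035, limma adjusted P = 8e-07). MET and FGFR1 changed by 0.56 and 0.48. FGFR4, at 21.5, 22.8 and 20.98 FPKM against 33.05, 31.1 and 31.6 FPKM (log2 fold change -0.53), was not called after correction for GC content (-0.18), and neither was IGFBP4, a carrier of insulin-like growth factor, at -0.65 before and -0.34 after. ERBB2 was at 15.1, 14.5 and 14.5 FPKM against 17.8, 17.3 and 17.8 FPKM, a difference of -0.25 that was not called.

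Downstream, 6 of 29 tested PI3K, AKT and mTOR genes were called higher (20.7%, against 10.8% of all genes tested) and 2 lower. Their median was 0.10. FOXO1 and FOXO3, factors that AKT excludes from the nucleus, changed by 0.65 and 0.52, and FOXO4 by -0.49. DEPTOR, an inhibitor of mTOR, was at 0.76, 0.85 and 0.87 FPKM against 1.74, 2.12 and 1.83 FPKM (log2 fold change -0.66). DEPTOR reached a mean of 1 FPKM only in the control. MTOR was at 8.74, 9.87 and 9.45 FPKM against 6.15, 6.11 and 6.34 FPKM (log2 fold change 0.52, SE 0.045, limma adjusted P = 6.2e-06). SGK1, a kinase related to AKT, changed by 0.67.

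Inflammatory genes had 5 of 18 tested called higher and 3 lower, with a median of 0.12 (0.26 after correction for GC content). CXCL8, the neutrophil chemokine, was at 23.6, 23.5 and 25.1 FPKM against 11.8, 12.1 and 12.6 FPKM (log2 fold change 0.93, SE 0.047, limma adjusted P = 2.2e-07). TNFAIP3, an enzyme that shuts off NF-kB, was at 10.2, 9.89 and 10.5 FPKM against 5.84, 6.49 and 5.95 FPKM (log2 fold change 0.66, SE 0.046, limma adjusted P = 1.5e-06). LTB, lymphotoxin beta, was lower, at 0.1, 0.1 and 0.16 FPKM against 2.43, 1.93 and 1.99 FPKM (log2 fold change -1.47). LTB reached a mean of 1 FPKM only in the control. ICAM1, an adhesion molecule, changed by 0.51. NFKB2 and TNIP1, at -0.42 and -0.54, were not called after correction for GC content (-0.12 and -0.36).

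Interferon-stimulated genes are raised by cells on sensing long or foreign RNA. Of 24 tested 4 were called higher (16.7%, against 10.8% of all genes tested) and 6 lower (25%, against 15.9%). Their median was -0.05. OASL was at 4.38, 4.21 and 4.94 FPKM against 3, 2.67 and 2.48 FPKM (log2 fold change 0.57, SE 0.067, limma adjusted P = 4.8e-05), and IFI35 was at 1.77, 1.74 and 1.25 FPKM against 4.95, 4.46 and 4.33 FPKM (log2 fold change -1.11, SE 0.088, limma adjusted P = 3.5e-06). IRF7 and BST2, at -0.53 and -0.47, were not called after correction for GC content (-0.05 and -0.36). RIGI, a sensor of such RNA, differed by -0.06 and was not called, and TLR3 lay under 1 FPKM in every library.

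Genes of class I antigen presentation were often lower. Of 16 tested genes 7 were called lower and 1 higher, with a median of -0.34. HLA-F was at 2.33, 2.44 and 2.12 FPKM with siRNA 1 and 5.99, 4.27 and 5.55 FPKM in the control (log2 fold change -0.92, SE 0.11, limma adjusted P = 5e-05). TAPBP, tapasin, which loads peptides, changed by -0.64. These groups did not overlap, though HLA genes resemble each other and can share reads. NLRC5, the coactivator of class I genes, was the member that rose, from 0.59, 0.51 and 0.57 FPKM to 1.79, 1.83 and 1.81 FPKM (log2 fold change 0.85). NLRC5 passed the limit of 1 FPKM only through its siRNA 1 libraries. PSMB10, an immunoproteasome subunit, changed by -0.44, and its call ended after correction for GC content (-0.23).

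Adhesion genes of epithelia had 7 of 40 tested called higher and 7 lower, with a median of 0.16. ITGA2, a collagen receptor chain, was at 9.73, 9.72 and 10.3 FPKM against 4.39, 5.33 and 4.78 FPKM (log2 fold change 0.91, SE 0.059, limma adjusted P = 1e-06). CD44, a hyaluronan receptor, and ITGA3 changed by 0.6 and 0.54. CLDN7, a claudin of tight junctions, was lower, at 12.4, 12.7 and 12.5 FPKM against 26.97, 25.1 and 26.2 FPKM (log2 fold change -1.0, SE 0.047, limma adjusted P = 1.3e-07). PKP3, of desmosomes, was at 31.3, 29.7 and 25.9 FPKM against 66.6, 55.8 and 64.3 FPKM (log2 fold change -1.08, SE 0.095, limma adjusted P = 6.8e-06). TJP3, of tight junctions, changed by -0.77, and correction for GC content gave -0.61 for PKP3 and -0.44 for TJP3. CLDN3 changed by -0.74, which after correction for GC content was not called (-0.17). Integrins and CD44 were thus among the rises, and named members of tight junctions and desmosomes among the falls.

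Cytoskeleton genes had 11 of 40 tested called higher and 4 lower, with a median of 0.14 (0.23 after correction for GC content). ACTB, beta-actin, was at 1483, 1609.6 and 1578 FPKM against 1063, 1020.0 and 1068 FPKM (log2 fold change 0.57, SE 0.039, limma adjusted P = 1.5e-06). MYL9, a myosin light chain, was lower, at 5.31, 5.96 and 5.36 FPKM against 12.2, 12.1 and 11.8 FPKM (log2 fold change -0.99, SE 0.064, limma adjusted P = 1.1e-06). FLNA, a filamin that crosslinks actin, was uneven, at 6.1, 3.22 and 8.32 FPKM against 2.22, 1.18 and 2.4 FPKM (log2 fold change 1.18, SE 0.28). RHOC changed by 0.54, TUBB2B by -0.73 and TPM2 by -0.6.

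Trafficking genes leaned upward in their median of 0.17. Of 43 tested 7 were called higher (16.3%, against 10.8% of all genes tested) and 1 lower. ARF4, a GTPase of the Golgi, was at 123, 125 and 128 FPKM against 89.3, 88.01 and 87.3 FPKM (log2 fold change 0.5, SE 0.03, limma adjusted P = 6e-07). SEC24D and SEC24A, cargo adaptors of COPII vesicles, changed by 0.52 and 0.5, and RAB5C, of early endosomes, by 0.5. STX5, a fusion protein of the Golgi, was lower, at -0.53.

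Genes of lipid metabolism were mostly not called. No cholesterol synthesis gene of 26 tested was called higher and 3 were called lower, with a median of -0.07. MVD, which makes isopentenyl pyrophosphate, was at 8.08, 7.7 and 6.35 FPKM against 16.97, 15.2 and 17.4 FPKM (log2 fold change -1.07, SE 0.099, limma adjusted P = 9.5e-06). TM7SF2, a sterol reductase, changed by -0.77 (-0.4 after correction for GC content). SREBF2, the regulator of the pathway, differed by -0.26 and was not called. Among fatty acid and lipid genes 4 of 29 were called higher (13.8%, against 10.8% of all genes tested) and 3 lower (10.3%, against 15.9%). ACLY, which makes cytosolic acetyl-CoA, was at 5.79, 6.99 and 5.39 FPKM against 3.52, 3.02 and 2.84 FPKM (log2 fold change 0.77, SE 0.15, limma adjusted P = 0.0012), and CPT1A, the entry to mitochondrial fat oxidation, changed by 0.45. SREBF1, at 20.7, 19.4 and 19.6 FPKM against 31.6, 28.7 and 32.7 FPKM (log2 fold change -0.61), was not called after correction for GC content (-0.29).

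Lysosomal and autophagy genes had 6 of 38 tested called higher (15.8%, against 10.8% of all genes tested) and 4 lower (10.5%, against 15.9%). ATG16L1, of autophagosome formation, was at 21.1, 21.5 and 20.2 FPKM against 12.99, 13.6 and 13.4 FPKM (log2 fold change 0.61, SE 0.038, limma adjusted P = 8e-07). NPC1, the cholesterol exporter of lysosomes, and ATP6V0D1, of the proton pump, changed by 0.55 and 0.58. NEU1, a sialidase, was lower, at 12.1, 11.9 and 11.8 FPKM against 18.8, 17.6 and 17.6 FPKM (log2 fold change -0.55, SE 0.039, limma adjusted P = 1.9e-06). ULK1 and NAGLU, at -0.51 and -0.53, lost their calls after correction for GC content (-0.14 and -0.15).

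Of 34 luminal genes 14 lay under 1 FPKM in all 6 libraries and 14 were tested, of which 4 were called higher and 1 lower (XBP1). AGR2, a disulfide isomerase of secretory epithelia, was at 9.42, 9.16 and 9.2 FPKM against 4.17, 4.08 and 4.24 FPKM (log2 fold change 0.99, SE 0.043, limma adjusted P = 8.7e-08). AQP3, a water and glycerol channel, was at 26.9, 29.8 and 26.7 FPKM against 13.5, 13.2 and 13.2 FPKM (log2 fold change 1.01, SE 0.045, limma adjusted P = 1.1e-07). MUC1 and TFF1, a mucin and a trefoil peptide, changed by 0.72 (1.38 after correction for GC content) and 0.88. All 4 were without overlap.

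Base composition moved with the calls. In the quintile of annotated genes with the highest GC content of the longest transcript, 58.6% to 75.8%, 42.8% were called lower and 4.23% higher, with a median of -0.30. In the quintile with the lowest, 30.2% to 40.9%, 3.01% were called lower and 9.95% higher, with a median of 0.081. After subtracting a smooth trend on GC content 924 of 1151 higher calls and 1121 of 1778 lower calls held. After that correction the medians of 35 of the 45 lists moved by more than the SD between siRNA 1 libraries. The lists farthest from 0 had corrected medians of -0.52 for serine, one-carbon and asparagine synthesis, -0.29 for the synthetases, -0.32 for the ribosomal proteins, 0.57 for the heat-shock proteins, 0.42 for the glycolytic enzymes, -0.28 for class I antigen presentation, 0.23 for the hypoxia-inducible genes, 0.20 for the zinc and metallothionein genes and -0.16 for the amino acid transporters. Lower calls went from 6 to 1 among interferon-stimulated genes, from 3 to 1 among inflammatory genes and from 4 to 1 in each of the Wnt and Notch, BCL2 and caspase, and growth factor receptor lists. The mitotic list went from 2 higher and 2 lower to 4 and 5. Transcript length mattered less, with quintile medians from -0.076 for the shortest to 0.053 for the longest. The part of base composition in single falls was not tested beyond this correction.

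**Figure D4:**
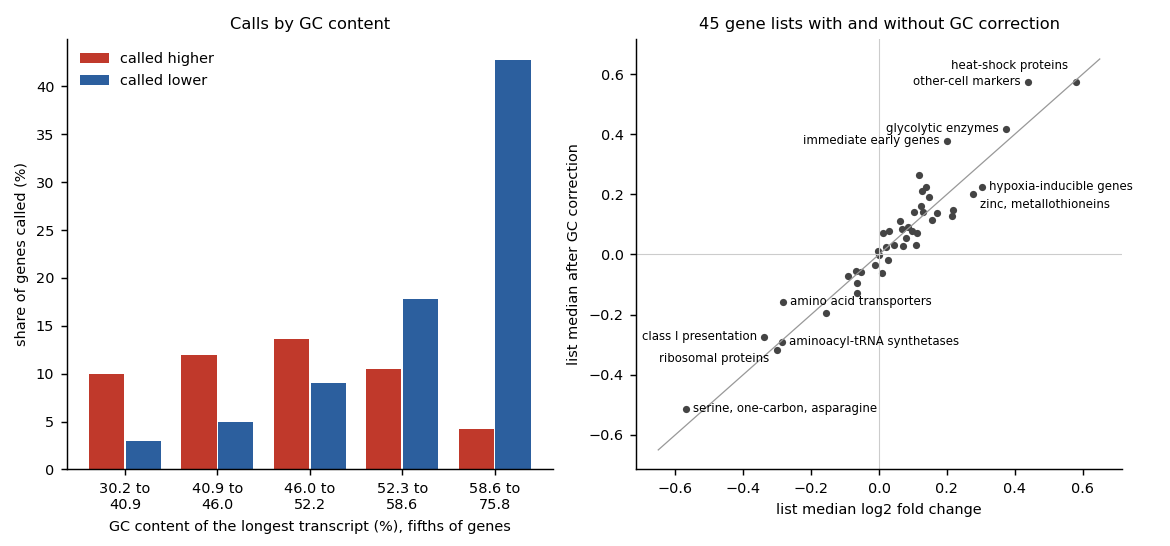
At left, bars give the share of annotated genes called higher or lower in each quintile of GC content, and the lower calls climb from 3.01% to 42.8%. At right, each point is a list, with its median log2 fold change before (x axis) and after (y axis) the GC correction, and a line where both are equal.

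Matches to the siRNA 1 seeds were counted in the 3′ untranslated region of 1 coding transcript for each of 11278 annotated genes. It was the best ranked transcript, and the longest among equals, so its untranslated region need not be the gene's longest. For the guide the matching letters are AGGTTTC. The median log2 fold change was -0.0053 over 9955 genes without a match, 0.0001 over 1151 genes with 1 match and 0.014 over 172 genes with more. Genes with a match had much longer untranslated regions, with a median of 2622 bases for 1 match against 919 bases for none, so they were also set side by side within quintiles of that length. In the quintile of 30 to 340 bases the median was -0.24 over 31 genes with a match and -0.084 over 2233 genes without, in that of 341 to 757 bases -0.20 over 86 and -0.064 over 2162, and in that of 758 to 1474 bases -0.11 over 180 and 0.0085 over 2076. The 2 longest quintiles gave 0.021 against 0.048 and 0.038 against 0.071, so the median with a match was the lower in 5 of 5.

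The control guide, with the letters TGTCACG, gave medians of -0.074 against -0.088, -0.12 against -0.066 and -0.046 against -0.0005 in the 3 shorter quintiles and 0.087 against 0.044 and 0.045 against 0.063 in the longer ones, lower with a match in 3 of 5. The control passenger, with the letters TCGGAGA, gave -0.21 over 7 genes against -0.087, -0.012 over 15 against -0.067 and -0.26 over 30 against -0.0009 in the shorter quintiles. In the longer ones it gave 0.0041 over 57 genes against 0.045 and 0.058 over 100 against 0.063, lower with a match in 4 of 5. The control passenger gap in the quintile of 758 to 1474 bases was larger than any of the siRNA 1 guide. It rested on 30 genes with a match, and the widest guide gap, in the shortest quintile, on 31. Fold changes are siRNA 1 over control, so a message lowered by a control strand would read as higher here. The cause of these gaps was not tested. For the siRNA 1 passenger, with the letters ATTCCAC, the median with a match was higher in every quintile, from -0.036 against -0.089 in the shortest to 0.072 against 0.055 in the longest. No test was made of these medians, and GC content, which also differs between genes with and without a match, was not held equal.

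Stretches of RNA with at most 3 mismatches to the 19 paired bases of either siRNA 1 strand were found in 22 tested genes. Of these 4 were called lower, FN3KRP (-0.66 on the log2 scale), AZI2 (-0.65), IL27RA (-0.58) and RACK1 (-0.54), and 3 higher, CDKN1A (0.93), PSTPIP2 (0.50) and PCLO (0.43), where 15.9% of all genes tested were called lower and 10.8% higher, so these counts are near the background. Sites that paired fully with the seed were held by 5 of the 22. FN3KRP, a kinase acting on glycated proteins, was the one called, and ORC4 (0.20), TDP2 (0.21, the site with 2 mismatches), COMMD9 (0.27) and CUL4B (0.18) had positive differences that were not called.

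Levels with siRNA 2 are set beside those with siRNA 1, with no comparison drawn, since both share the control libraries. The siRNA 2 mean was 28.9 FPKM for ASNS, 26.6 FPKM for PSAT1, 26.8 FPKM for TRIB3 and 66.6 FPKM for SARS1, where the siRNA 1 means were 34.4, 37.2, 31.4 and 82.2 FPKM and the control means 162, 105, 102 and 176 FPKM. Chaperones stood at other levels with siRNA 2, with means of 591 FPKM for HSPA1B, 652 FPKM for DNAJB1 and 480.1 FPKM for HSPA5, where siRNA 1 gave 91.01, 186 and 273 FPKM and the control 24.5, 66.7 and 164 FPKM. For TFRC the siRNA 2, siRNA 1 and control means were 141, 119 and 34.8 FPKM, and for RPL3 they were 1376, 1329.8 and 2320.5 FPKM.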

How the data were processed

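Values were the FPKM per gene that the authors deposited in a single table for 9 libraries, sequenced on BGISEQ-500. The submitters' processing notes name Bowtie2 and GRCh37.p13. Other steps are not given in the sources used here. The table also holds the authors' log2 ratios, P-values and Q-values, which were not used, and 9 repeated FPKM columns, likewise not used. Left out were 4 lines without values. Depth was estimated from the spacing of low values, at 24.08 to 27.46 M fragments, so 1 FPKM is about 89 fragments for a gene of median length.

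Because the study states criteria but no model, limma 3.58.1 (R 4.3.3) was fitted to log2(FPKM + 1) values of all 9 libraries with group as the term and a mean-variance trend, and fold changes of low genes are understated on this scale. Genes averaging 1 FPKM or more in the 6 libraries compared were tested. A fold of at least 1.3 and an unadjusted, two-sided P of at most 0.05 made a call, and adjusted P is Benjamini-Hochberg over all genes tested. The exact permutation test of 3 against 3 libraries cannot go below 0.1. Named genes were the 12 largest rises and falls among calls without overlap, up to 4 called rises and falls per list, and 36 further genes whatever their value. Some genes that this rule names are not reported here, although list counts and medians include them. Members and lists were chosen with earlier results of these data known. Promoters came from RefSeq GRCh38.p14. Untranslated regions, the transcripts searched for strand matches and GC content came from GENCODE. The fit was tested on simulated data.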

Additional observations from a re-analysis of the deposited data

Results flagged for a closer look

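Predicted genes, which the comparison of named functions does not use, also differed between the groups. Of 1504 tested, 248 were called higher with siRNA 1 (16.5%) and 286 lower (19%), against 10.1% and 15.5% of annotated genes, and their median log2 fold change was 0.01. The predicted gene with the largest rise among those listed at 0 in all 3 control libraries was at 11.1, 10.7 and 8.05 FPKM with siRNA 1. Another stood at 0, 0.33 and 9.79 FPKM with siRNA 1 and at 63.4, 66.9 and 80.6 FPKM in the control, so that its siRNA 1 libraries were uneven but all below the control. No sequence or position was used for these genes, and no fold is given against a group listed at 0.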

How the results depend on the processing

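The count of 3467 called genes (1401 higher, 2066 lower) became 2272 (900 and 1372) with a mean of at least 5 FPKM, 1593 (524 and 1069) at a fold limit of 1.5 and 378 (105 and 273) at a limit of 2, where fewer genes can pass by construction. After correction for GC content 1297 genes were called lower, and the share of calls that were higher went from 40.4% to 49.5%. Leaving out each library gave 3370 to 3618 calls, 1384 to 1475 higher and 1986 to 2143 lower. The replicate block, on the labels no suffix, r1 and r2, gave 3480 calls. Deviations of same-label libraries from their group means (r = 0.097, -0.042 and 0.017) lay within the range of other pairs, -0.13 to 0.11. With 3 libraries a group these values cannot tell whether same-label libraries share a culture or run. Of 286 named genes 228 kept direction and call after the GC correction, 52 lost the call, 1 gained it and 5 turned, namely BAD (0.0083), E2F1 (0.2324), TFEB (0.0719), KRT19 (0.2076) and FKBP5 (-0.0129). The length correction ended 14 calls, those of XBP1, BAD, BAX, TEAD2 and PSMB10 included. Genes near 0 also turned elsewhere. YY1 was 0.0076 after the length correction. Leaving out a library moved TFEB between -0.1145 and 0.0525, YY1 between -0.0368 and 0.0233 and RIGI between -0.1181 and 0.0027. The cause was not tested. Medians of the 45 lists changed sign in 3 under the GC correction, 2 under the length correction, 4 with at least 5 FPKM and 0 with 0.1 FPKM added. Precision is limited by 3 libraries a group and, at 1 FPKM, by about 89 fragments per gene.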
